A study of Mus musculus with 2 samples.

Results

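The neuregulins and the other EGF-family ligands, together with the ErbB receptors that bind them, were examined as 9 genes: the ligands Nrg1, Nrg2, Nrg4, Hbegf and Btc and the receptors Egfr, Erbb2, Erbb3 and Erbb4. They were taken by gene symbol from the 19465 genes of the count tables, all 9 were present, and all 9 passed a minimum of 20 UMIs (unique molecular identifiers, each marking 1 captured molecule) over both sections. Counts came from a probe-based spatial assay, Visium CytAssist, run on 5 μm paraffin sections of mouse heart. Each spot of its grid covers a small area that can hold several cells of different types. The control section came from the α-MHC-MerCreMer+/− genotype and the transgenic section from α-MHC-MerCreMer+/− hTOP2B LSL/−, with 1 section of each. MerCreMer is a tamoxifen-activated Cre recombinase that the α-MHC promoter drives in cardiomyocytes, and it was carried by both genotypes. In the transgenic genotype Cre removes a floxed STOP cassette and so releases a human TOP2B cDNA that was placed behind a CAG promoter at Rosa26. Tamoxifen was given intraperitoneally to both genotypes as a single dose of 80 mg/kg. According to the methods the transgenic mice were 6 weeks old at injection, and the controls were their siblings of equal age. Sex, time of harvest and the number of animals behind each section are not given in the sources used here. The comparison asked how the cardiac transcriptome differed when human TOP2B was induced in cardiomyocytes.

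Neuregulin-1 is made in the heart mainly by endocardial and other endothelial cells and acts on neighboring cardiomyocytes, which carry ErbB4 and ErbB2. ErbB2 has no known ligand of its own and works as the partner in heterodimers, ErbB3 has little kinase activity and also needs a partner, and EGFR binds EGF-like ligands such as HB-EGF and betacellulin. Signaling by neuregulin-1 through ErbB2 and ErbB4 is required for trabeculation of the embryonic ventricle, and blocking ErbB2 in patients who also receive anthracyclines is known for its cardiac toxicity.

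The control section held 1256 spots over tissue with 14376300 UMIs and the transgenic section 924 spots with 12953389 UMIs, at a median of 11336 and 14531 UMIs per spot. Levels are given as CPM, UMIs of a gene per 1000000 UMIs of the section, with an exact Poisson 95% interval, and ratios between sections as log2 of transgenic over control CPM with an exact conditional binomial 95% interval. These intervals cover counting error only. With 1 section per genotype the differences have no replicate check and no p value was computed. Across 15236 genes with at least 20 UMIs the median log2 ratio was 0.20. All 11 cardiomyocyte markers were detected in both sections, at a summed 106798 CPM (control) and 54911 CPM (transgenic), and erythroid markers summed to 2145 and 20390 CPM. Of the cardiomyocyte markers 9 had a ratio interval below 0, with Tnni3 the lowest at -1.92. The other 2, Tnnt2 at 0.17 and Mybpc3 at 0.13, had an interval above 0. The lower sum was not read as fewer cardiomyocytes. Mouse Top2b stood at 106 and 102 CPM, which checks nothing about the labels because mouse probes need not measure the human transgene.

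Nrg1 (ENSMUSG00000062991) showed the largest difference of the 9 genes. The control section held 60 Nrg1 UMIs, or 4.17 CPM (3.18 to 5.37), and the transgenic section held 343, or 26.5 CPM (23.8 to 29.4). The log2 ratio was 2.67 (2.27 to 3.09), a 6.34-fold higher level. Spots with Nrg1 made up 4.30% of the control section (54 of 1256, Clopper–Pearson 95% interval 3.25 to 5.57) and 20.7% of the transgenic section (191 of 924, 18.1 to 23.4). After every spot was thinned to 8134 UMIs, leaving out 140 and 78 shallower spots, the expected shares were 2.93% and 14.7%. Spots with 2 or more Nrg1 UMIs numbered 5 in the control and 79 in the transgenic section, and the highest spot held 3 and 11. Nrg1 was therefore detected in more spots and at higher counts per spot. As with every level given here, more cells of a type and more RNA per cell cannot be told apart.

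The other neuregulins ran the opposite way on small counts. Nrg4 (ENSMUSG00000032311), a ligand of ErbB4 best known from brown fat, had 56 UMIs (3.90 CPM, 2.94 to 5.06) in the control section and 27 (2.08 CPM, 1.37 to 3.03) in the other, for a log2 ratio of -0.90 (-1.62 to -0.22). Nrg2 (ENSMUSG00000060275), a ligand of ErbB3 and ErbB4, had 26 and 17 UMIs (1.81 and 1.31 CPM), and its log2 ratio of -0.46 (-1.44 to 0.47) had an interval across 0. No spot held more than 1 UMI of either gene in the transgenic section.

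Hbegf and Btc, whose products bind both EGFR and ErbB4, were higher in the transgenic section. Hbegf (ENSMUSG00000024486), whose membrane-bound precursor is shed to release the active growth factor, had 264 UMIs (18.4 CPM, 16.2 to 20.7) and 390 UMIs (30.1 CPM, 27.2 to 33.2), for a log2 ratio of 0.71 (0.48 to 0.94). Hbegf was found in 18.5% and 32.9% of spots (13.9% and 21.6% after thinning). Btc (ENSMUSG00000082361), the gene of betacellulin, had 40 UMIs (2.78 CPM, 1.99 to 3.79) and 60 UMIs (4.63 CPM, 3.53 to 5.96), with a log2 ratio of 0.74 (0.13 to 1.35). For both genes the interval of the ratio lay above 0 and the ratio was below 2-fold over all spots. In the 50% of spots richest in cardiomyocyte markers the Btc log2 ratio was 1.29, past 2-fold. It is given without an interval, and whether these spots were matched in marker level between the sections was not checked.

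**Figure D1:**
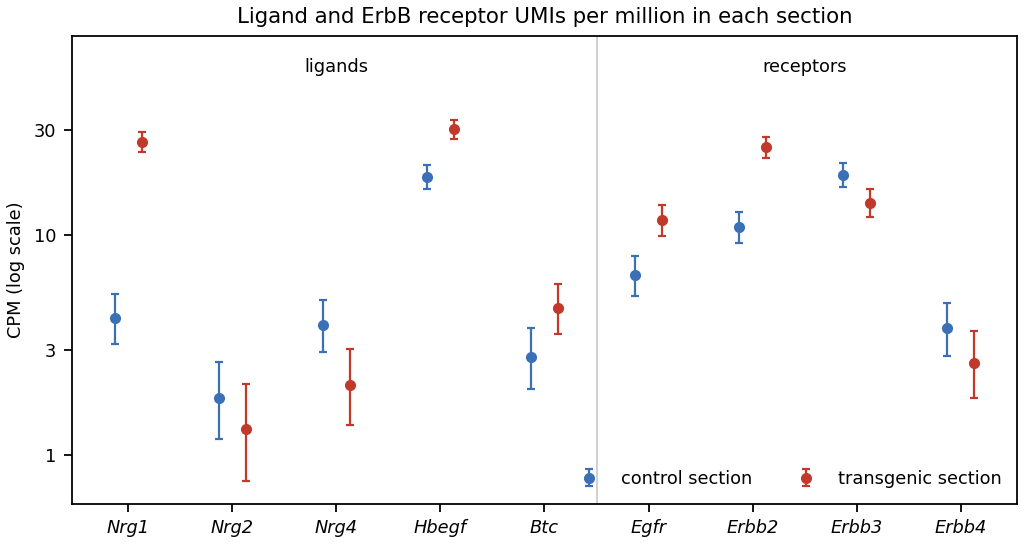
Level of each ligand and receptor gene in the control section (blue) and the transgenic section (red), in CPM on a log axis. Points are the sum over all spots of 1 section and bars are exact Poisson 95% intervals, and the pair of points for Nrg1 lies farthest apart, at 4.17 and 26.5 CPM.

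Among the receptors Erbb2 and Egfr were higher and Erbb3 was lower in the transgenic section. Erbb2 (ENSMUSG00000062312) had 156 UMIs (10.9 CPM, 9.22 to 12.7) in the control and 323 (24.9 CPM, 22.3 to 27.8) in the transgenic section. Its log2 ratio was 1.20 (0.92 to 1.49), a 2.30-fold higher level, and it was detected in 11.6% and 28.4% of spots (8.49% and 18.6% after thinning). Egfr (ENSMUSG00000020122) had 94 UMIs (6.54 CPM, 5.28 to 8.0) and 151 UMIs (11.7 CPM, 9.87 to 13.7), giving a log2 ratio of 0.83 (0.45 to 1.22). Both genes were found in a larger share of spots in the transgenic section, Egfr in 7.48% and 14.5%.

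Erbb3 and Erbb4, the receptors that bind neuregulins directly, did not share that direction. Erbb3 (ENSMUSG00000018166) had 269 UMIs (18.7 CPM, 16.5 to 21.1) in the control and 181 (14.0 CPM, 12.0 to 16.2) in the transgenic section, which gave a log2 ratio of -0.42 (-0.70 to -0.14). Erbb4 (ENSMUSG00000062209) had 54 UMIs (3.76 CPM, 2.82 to 4.90) and 34 UMIs (2.62 CPM, 1.82 to 3.67), and its log2 ratio of -0.52 (-1.18 to 0.13) crossed 0. The balance between receptor genes therefore differed between the sections, and since a ratio of 2 genes within a section does not depend on the section's total, it was also given directly. Per 100 Erbb4 UMIs there were 289 Erbb2 UMIs in the control and 950 in the transgenic section, a log2 difference of 1.72 (1.04 to 2.40). This interval, like that of every value per 100 UMIs, is a normal approximation on the log scale and not exact. Per 100 Erbb3 UMIs there were 58.0 and 178 Erbb2 UMIs, a log2 difference of 1.62 (1.23 to 2.01). Per 100 Egfr UMIs there were 166 and 214, and that log2 difference of 0.37 (-0.10 to 0.83) crossed 0. Levels of different genes were not ranked within a section, because the number of probes per gene is not given in the sources used here.

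Counted together, 5 of the 9 genes had an interval above 0 (Nrg1, Hbegf, Btc, Egfr and Erbb2), 2 had an interval below 0 (Nrg4 and Erbb3) and 2 had an interval across 0 (Nrg2 and Erbb4). The share of all genes with such intervals was not counted, so these counts have no background and are a description only. The median log2 ratio of the 9 genes was 0.71, against 0.20 for all genes. At least 2-fold higher were 2 of the 9 (Nrg1 and Erbb2), beside 13.7% of all genes tested, and at least 2-fold lower were 0 of the 9, beside 5.61%. A count of 2 among 9 genes was not read as a departure from that background.

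Each section was also cut into 4 quadrants at its median spot row and column, to show the spread inside a section. Nrg1 ranged from 2.10 to 5.92 CPM over the control quadrants and from 15.8 to 42.0 CPM over the transgenic ones. Erbb2 ranged from 9.97 to 11.8 CPM and from 20.5 to 27.8 CPM. The transgenic quadrants thus differed more widely in Nrg1, on 57 to 132 UMIs each, than in Erbb2, on 54 to 99. In 5 genes (Nrg1, Hbegf, Btc, Egfr and Erbb2) every transgenic quadrant was higher than every control quadrant, beside 30.3% of all genes, and in 2 (Nrg4 and Erbb3) every one was lower, beside 13.1%. The quadrants of Nrg2 and Erbb4 overlapped between the sections. Quadrants of 1 section share its tissue and library and are not replicates.

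The position of Nrg1 within the tissue was then described. Spots with fewer than 6 neighboring spots over tissue were called edge spots and divided into an inner edge, beside an enclosed opening in the tissue, and an outer edge, beside the outside of the section. The inner edge held 91 spots in the control and 178 in the transgenic section, or 7.25% and 19.3% of spots, and the largest opening measured 78 and 154 grid positions. At a median of 9466 and 11083 UMIs, inner edge spots were shallower than interior spots, at 11653 and 15251.

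Nrg1 was highest at the inner edge in both sections. In the control it stood at 18.2 CPM at the inner edge (15 UMIs, 10.2 to 30.1), 7.55 CPM at the outer edge (9 UMIs, 3.45 to 14.3) and 2.91 CPM in the interior (36 UMIs, 2.04 to 4.03). In the transgenic section it stood at 73.8 CPM (147 UMIs, 62.3 to 86.7), 17.6 CPM (29 UMIs, 11.8 to 25.3) and 17.9 CPM (167 UMIs, 15.3 to 20.9) in the same order. The log2 ratio of inner edge over interior was 2.65 (1.67 to 3.55) in the control and 2.04 (1.71 to 2.37) in the transgenic section. The outer edge stood above the interior in the control, with a log2 ratio of 1.37 (0.14 to 2.46). In the transgenic section it was near the interior, at -0.03 (-0.65 to 0.55). With spots of fewer than 5 neighbors as the edge, the transgenic inner edge ratio was 1.53.

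The transgenic section was higher in Nrg1 in every zone. At the inner edge the log2 ratio of transgenic over control was 2.02 (1.25 to 2.89), a 4.05-fold higher level. In the interior it was 2.62 (2.10 to 3.18), 6.16-fold, and at the outer edge 1.22 (0.10 to 2.48). The transgenic section also had the larger share of inner edge spots, and the part of that share in the Nrg1 difference was not tested. The interior was not uniform either. Of its 167 transgenic Nrg1 UMIs, 84 lay in 38 spots rich in endocardial markers, which are described below.

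Nrg1 also fell off with the number of grid steps from the nearest opening. In the control it went from 18.0 CPM at 1 step to 7.52, 6.77, 3.72 and 2.29 CPM at 2, 3, 4 and 5 steps, and 2.27 CPM at 6 steps or more. In the transgenic section it went from 72.3 CPM at 1 step to 25.0, 15.4, 4.5 and 6.70 CPM, and was 28.4 CPM (22.6 to 35.3) at 6 steps or more. The decline over the first 4 steps was therefore seen in both sections, and the high level far from openings was seen in the transgenic section. In the map of Nrg1 a band of spots with Nrg1 was visible along 1 side of the transgenic section. The UMIs of that band were not counted apart. Hbegf and Erbb2 showed no steady fall. Hbegf was 22.8 CPM at 1 step and 18.5 CPM at 6 or more in the control, and 31.6 and 36.1 CPM in the transgenic section. Erbb2 was 15.6 and 11 CPM in the control, and 21.8 and 30.9 CPM in the transgenic section, and the intervals at both distances overlapped for both genes.

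**Figure D2:**
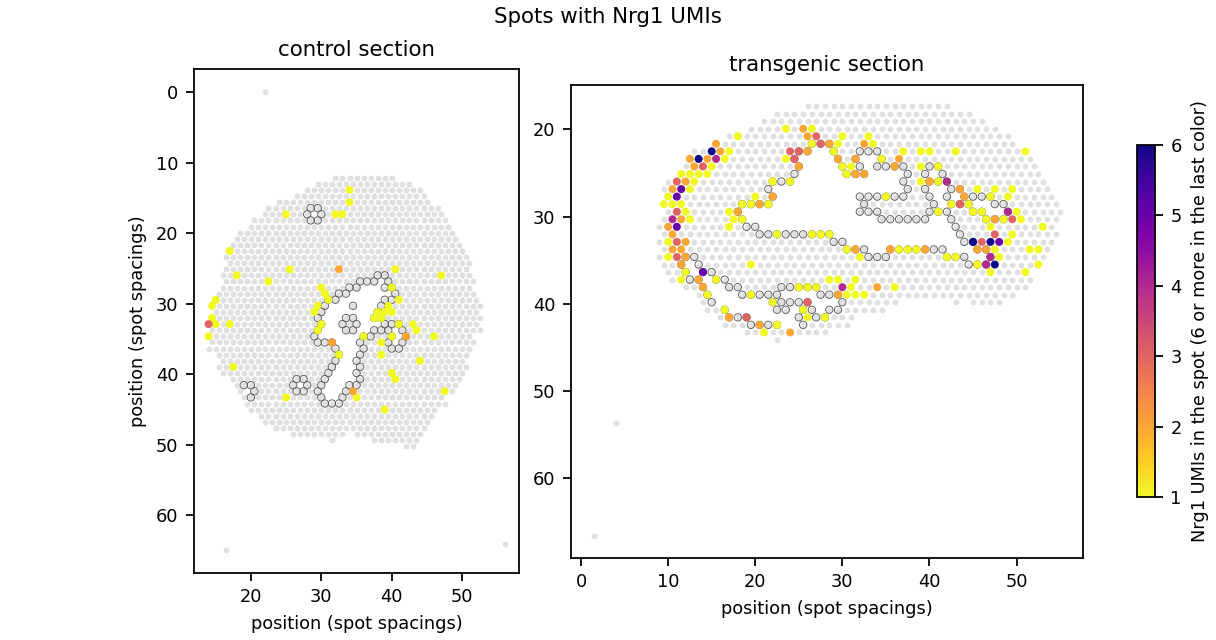
Spots over tissue in the control section (left) and the transgenic section (right), placed in units of spot spacing, with inner edge spots outlined and spots with Nrg1 colored by their number of UMIs. Nrg1 follows the openings in both sections, and a further band of spots with Nrg1 lies along the left side of the transgenic section.

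**Figure D3:**
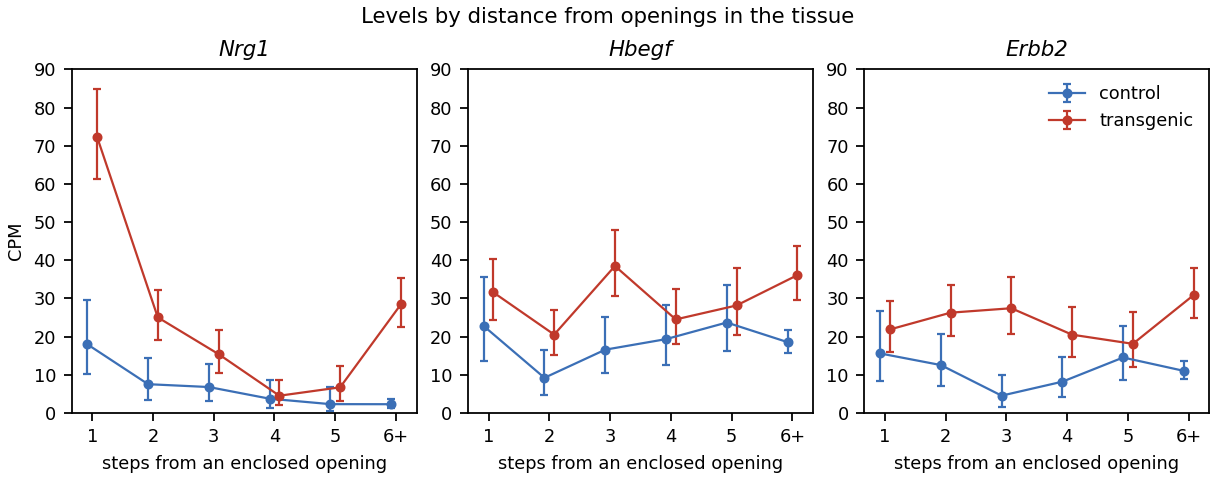
CPM of Nrg1, Hbegf and Erbb2 against the number of grid steps from the nearest enclosed opening, in the control (blue) and transgenic (red) sections, with exact Poisson 95% intervals. Nrg1 falls from 72.3 to 4.5 CPM over 4 steps in the transgenic section and from 18.0 to 3.72 CPM in the control, and Hbegf and Erbb2 show no steady fall.

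Neighboring spots shared Nrg1. Of the 54 control spots with Nrg1, 26 (48.1%) touched another such spot, against 16.2% of the spots without Nrg1. In the transgenic section 165 of 191 (86.4%) did so, against 43.8% of the others. Moran's I, the deposited score of how strongly neighboring spots resemble each other, was 0.081 for Nrg1 in the control and 0.259 in the transgenic section. Among scored genes with at least 20 UMIs in the same section, these lay at the 98.9th and 95.9th percentile. For the other 8 genes it ranged from -0.020 to 0.025 over both sections, so none of them had a spatial pattern of that strength. At 17 to 390 UMIs per gene a weak pattern would not be detectable at this depth.

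At the inner edge, Nrg1 was the 1 gene at least 2-fold above the interior among the 9 in the control, beside 4.37% of all genes with at least 20 UMIs in that section, and among the 8 with at least 20 UMIs in the transgenic section, beside 1.37%. Nrg2, with 17 UMIs, was below that minimum there. Its log2 ratio of 1.22 rested on 4 UMIs at the inner edge (-0.96 to 3.13). Among the other genes Btc at the control outer edge had an interval above 0, with a log2 ratio of 1.42 (0.09 to 2.57) from 8 UMIs. Erbb4 had no UMI in the 139 outer edge spots of the control, where the Poisson interval reached 3.09 CPM, against 4.21 CPM in the interior (3.14 to 5.52).

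Spots were next ranked by marker lists of 10 cell types, and the 10% of spots of each section with the largest share of UMIs from a list were set against all other spots. The 9 endocardial markers gave the largest contrast for Nrg1. They were Npr3, Cytl1, Plvap, Adgrg6, Vwf, Tmem108, Cgnl1, Hmcn1 and Nfatc1, were ranked by their sum, and did not behave alike, as given below. In the control Nrg1 was at 21.3 CPM (13.9 to 31.2) in the 126 endocardial marker-rich spots and at 2.58 CPM elsewhere, a log2 ratio of 3.04 (2.25 to 3.82). Transgenic Nrg1 was at 135 CPM (114 to 157) in the 92 rich spots and at 15.9 CPM elsewhere, a log2 ratio of 3.09 (2.77 to 3.4). The difference in this contrast between the sections was not tested, and its intervals overlapped. The rich spots held 43.3% and 45.5% of the Nrg1 UMIs.

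This contrast was also present in interior spots and far from the enclosed openings. Only enclosed empty grid positions were counted as openings. A cavity joined to the outside, or too narrow to leave a position empty, was not among them. Interior spots rich in endocardial markers held Nrg1 at 13.2 CPM (control, 6.34 to 24.3) and 144 CPM (transgenic, 115 to 179), against 2.24 and 9.51 CPM in the remaining interior. At 6 steps or more from an opening, the 32 rich spots of the transgenic section held 59 of the 82 Nrg1 UMIs, at 139 CPM (106 to 179), and the other 179 spots stood at 9.35 CPM (5.93 to 14.0). The distant Nrg1 UMIs of the transgenic section thus lay largely in spots rich in endocardial markers. This count covers all spots at that distance, not the band seen in the map. In the control the same division gave 12.0 CPM (4.4 to 26.1) and 1.65 CPM (0.88 to 2.83).

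Among the other lists, fibroblast marker-rich spots stood out for Nrg1, with log2 ratios of 2.25 (1.38 to 3.07) in the control and 2.14 (1.81 to 2.47) in the transgenic section. Endocardial and fibroblast marker-rich spots overlapped in part. Transgenic spots rich in both lists held Nrg1 at 183 CPM (144 to 229), those rich in endocardial markers alone at 108 CPM (85.9 to 134), those rich in fibroblast markers alone at 43.3 CPM (30.8 to 59.2), and spots rich in neither at 13.6 CPM (11.5 to 16.0). The same order held in the control, from 32.8 CPM (14 UMIs) through 15.1 (12 UMIs) and 5.87 (5 UMIs) to 2.36 CPM (29 UMIs), where the intervals of neighboring classes overlapped.

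The general endothelial list, which includes Pecam1, Cdh5 and Kdr, gave no such contrast for Nrg1. Its log2 ratio was 0.46 in the control and -0.82 (-1.57 to -0.16) in the transgenic section. Spots were ranked by the list's sum, of which Fabp4 alone made up 13912 of 31526 control and 12738 of 25858 transgenic UMIs. Cardiomyocyte marker-rich spots of the transgenic section were low in Nrg1, at 9.13 CPM against 28.4 CPM elsewhere, a log2 ratio of -1.64 (-2.61 to -0.82). In the control the cardiomyocyte ratio was 0.16 with an interval across 0. Nrg1 was higher in atrial marker-rich spots of the transgenic section, at 1.15 (0.74 to 1.54), in Schwann cell marker-rich spots, at 1.36 in the control and 0.51 in the transgenic section, and in erythroid marker-rich spots, at 1.74 and 0.89. For the smooth muscle, epicardial and macrophage lists its interval crossed 0 in both sections. The transgenic erythroid ratio of 0.89 became -0.22 when the richest 5% of spots were taken.

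Of the 80 combinations of the other 8 genes and 10 lists, 4 in the control and 3 in the transgenic section had an interval that left out 0, against 4 and 7 of 10 lists for Nrg1. Erbb2 was somewhat higher in endothelial marker-rich spots of the transgenic section, at 36.2 CPM against 23.8 CPM, a log2 ratio of 0.60 (0.11 to 1.07). Egfr was higher in endothelial marker-rich spots of the control, at 0.99 (0.08 to 1.79) from 15 UMIs, and in smooth muscle marker-rich spots of the transgenic section, at 0.84 (0.18 to 1.46). Erbb4 was higher in smooth muscle marker-rich spots of the transgenic section, at 1.41 (0.06 to 2.59) from 8 UMIs. The other 3 were in the control: Nrg4 in smooth muscle marker-rich spots at -2.70 (-8.03 to -0.16) from 1 UMI, Nrg2 in epicardial marker-rich spots at 1.69 (0.08 to 3.05) from 6 UMIs, and Erbb4 in epicardial marker-rich spots with no UMI. None of these recurred in the other section with an interval that left out 0. The intervals are not adjusted for the number of combinations. The share of all genes with such intervals was not counted, so the counts have no background. Genes with more UMIs have narrower intervals, and the counts for Nrg1 and for the other 8 genes are a description only. In endocardial marker-rich spots, 2 of 9 genes were at least 2-fold higher in the control, beside 3.70% of all genes, and 1 of 8 in the transgenic section, beside 2.94%. Nrg2 was the second gene of the control, on 5 UMIs and with an interval across 0.

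**Figure D4:**
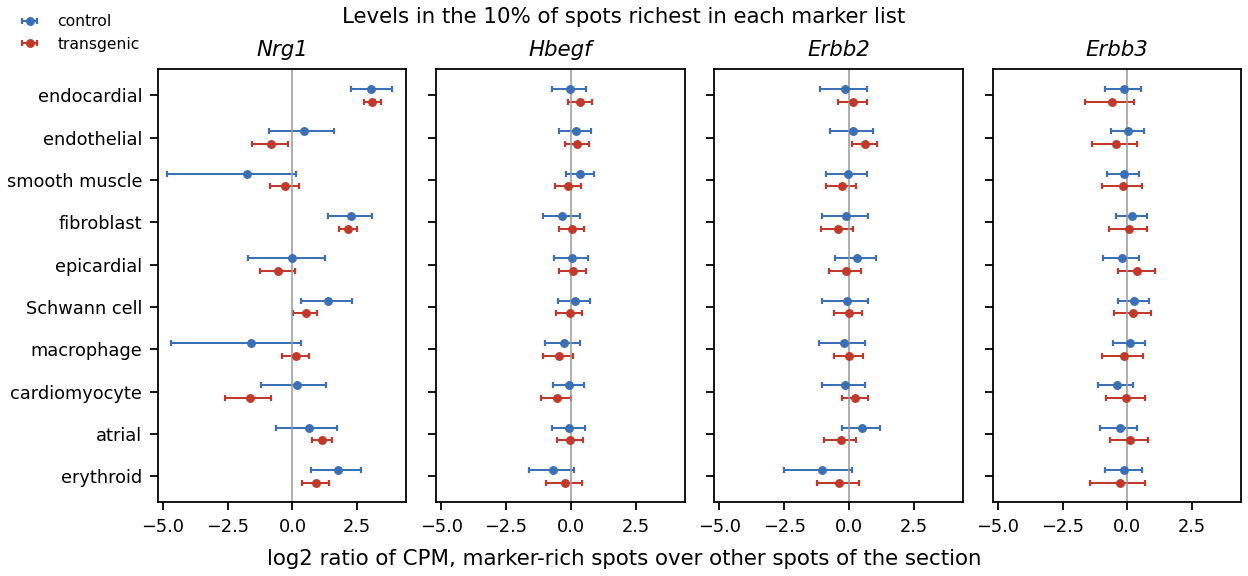
Log2 ratio of CPM in the 10% of spots richest in each of 10 marker lists over all other spots of the same section, for Nrg1, Hbegf, Erbb2 and Erbb3 in the control (blue) and transgenic (red) sections. Bars are exact conditional binomial 95% intervals, and Nrg1 stands at 3.04 and 3.09 for endocardial markers, where the other 3 genes lie between -0.60 and 0.37 with intervals across 0.

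Of the 9 endocardial markers themselves, 6 had an interval above 0 for the transgenic over control ratio, 1 below 0 and 2 across 0. Their summed level was 103 CPM (1484 UMIs) for the control and 266 CPM (3452 UMIs) for the transgenic, with none of the 9 genes at 0. The genes ranged from Cytl1 at a log2 ratio of -1.43 to Vwf at 2.48, with Npr3 at 1.44 and Plvap at 1.82, and Vwf made up 1349 of the transgenic UMIs. Cgnl1 at -0.26 and Hmcn1 at 0.22 had intervals across 0. Nrg1 moved by more than their sum: per 100 endocardial marker UMIs there were 4.04 Nrg1 UMIs in the control and 9.94 in the transgenic section, a log2 difference of 1.30 (0.89 to 1.70). It did not move by more than every marker. The interval of the Nrg1 ratio (2.27 to 3.09) overlapped those of Vwf (2.29 to 2.68) and Tmem108, at 2.15 (1.49 to 2.86). The intervals of the other markers lay below it. Leaving out the endocardial marker-rich spots, the Nrg1 log2 ratio was 2.62. Rich spots were ranked within each section, and the lowest of them held 318 CPM of the list in the control and 663 in the transgenic section. The spots left were therefore not matched in endocardial marker level. Per 100 fibroblast marker UMIs the log2 difference of Nrg1 was 2.02 (1.63 to 2.42), while that list summed to 1257 and 1961 CPM. Atrial markers summed to 25.4 and 131 CPM, and Dkk3 alone made up 947 of the 1703 transgenic UMIs. Myl7 stood at a log2 ratio of 1.86 and Myl4 at 1.20, while Sln and Bmp10 had intervals across 0. Without the atrial marker-rich spots, whose lowest held 77.0 and 300 CPM of the list, the Nrg1 ratio was 2.57. In the 50% of spots with the lowest share of erythroid UMIs it was 2.56. Erythroid markers summed to 2145 and 20390 CPM over all spots, and whether the spots left were matched in erythroid level was not checked.

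Erbb2 was set against the same lists. Per 100 endocardial marker UMIs Erbb2 differed by -0.17 (-0.46 to 0.12) on the log2 scale between the sections. Per 100 fibroblast marker UMIs it differed by 0.56 (0.28 to 0.84), and per 100 endothelial marker UMIs by 1.34 (1.06 to 1.61). Per 100 cardiomyocyte marker UMIs it differed by 2.16 (1.88 to 2.44), while that list summed to 106798 and 54911 CPM. The level of Erbb2 in endocardial marker-rich spots was near that of other spots, at log2 ratios of -0.15 (-1.14 to 0.70) in the control and 0.16 (-0.41 to 0.69) in the transgenic section. In the 50% of spots richest in cardiomyocyte markers the transgenic over control ratio of Erbb2 was 1.52, and Erbb2 in cardiomyocyte marker-rich spots differed from other spots by -0.16 (-1.03 to 0.61) and 0.24 (-0.29 to 0.73). The part of a changed cell makeup in the Erbb2 difference was not tested.

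Receptor UMIs were compared between spots with and without a ligand. The transgenic section had 191 spots with Nrg1, of which 50 also held Erbb2 and 8 also held Erbb4. Erbb2 stood at 23.0 CPM in the Nrg1 spots and 25.4 CPM elsewhere, a log2 ratio of -0.15 (-0.57 to 0.26). Erbb4 stood at 2.97 and 2.53 CPM, a ratio of 0.23 (-1.13 to 1.41). In the control none of 54 Erbb4 UMIs lay in the 54 Nrg1 spots, which at their total depth left an interval that reached 0.77. For all 4 receptors in both sections the interval for Nrg1 spots crossed 0, so no enrichment or depletion of receptor transcripts beside Nrg1 was detectable at this depth. For Hbegf spots, 7 of the 8 intervals crossed 0. The exception was Erbb3 in the transgenic section, at 10.9 CPM in Hbegf spots and 15.7 CPM elsewhere, a log2 ratio of -0.53 (-1.03 to -0.05).

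Genes with a spatial distribution like that of a member were sought by Pearson's correlation over spots, after summing each spot with its neighbors. Correlations are given as a description, since neighboring spots share counts, tissue and depth. Hbegf was the 1 gene with at least 200 UMIs in both sections, and among 6789 genes its nearest were Ankrd1, a stress-induced cardiac repeat protein, with r of 0.16 in the control and 0.41 in the transgenic section, Dusp3 with 0.19 and 0.38, and Cryab, a small heat shock protein, with 0.14 and 0.42. For Nrg1 the ranking was made in the transgenic section only and was chosen after its values were seen. Its nearest genes were Igf2, an insulin-like growth factor, with r of 0.72 in the transgenic and 0.33 in the control section, Npr3, with 0.68 and 0.36, and Plvap, with 0.67 and 0.42. Emcn, which was on the endothelial list, ranked 5 for Nrg1, with 0.52 and 0.08. Npr3 and Plvap were on the endocardial list, whose members were not uniform. Vwf had an r of 0.49 in the transgenic section, and Cytl1 and Adgrg6 were at 0.07 and 0.08. Nfatc1 was at -0.12, with -0.06 in the control. The other 8 members had correlations with Nrg1 between -0.09 and 0.08 in both sections.

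Other genes of the pathway were taken from 5 lists of 66 genes, of which 65 had at least 20 UMIs. Past 2-fold on the higher side were 16, beside the 13.7% of all genes, and at least 2-fold lower were 2, beside 5.61%. The lower count was 5 with TMM or DESeq2 factors and 4 without the 50 most abundant genes. Their median log2 ratio was 0.37, against 0.20 for all genes. The 16 were spread unevenly over the lists, and 8 of them were MAPK feedback and response genes.

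The 13 MAPK feedback and response genes, which ERK signaling is known to induce and which mostly act back on it, had 8 genes at least 2-fold higher, 0 lower, and a median log2 ratio of 1.27, beside 13.7%, 5.61% and 0.20 for all genes. The list was chosen with earlier results of these data known, so this is a description. Dusp4, a phosphatase of nuclear MAP kinases, went from 95 control UMIs (6.61 CPM) to 753 transgenic UMIs (58.1 CPM), for a log2 ratio of 3.14 (2.83 to 3.46). Spry1, a Sprouty inhibitor of receptor tyrosine kinase signaling, stood at 1.92 (1.72 to 2.11), and the ETS transcription factors Etv4 and Etv5 at 1.90 (1.28 to 2.56) and 1.69 (1.54 to 1.85). The remaining 4 were Egr1, Ier3, Dusp6 and Spred1, between 1.67 and 1.08, and Spred1 passed 2-fold by the least. With TMM or DESeq2 factors, or totals without the 50 most abundant genes, Spred1 lay under 2-fold, which left 7 of this list and 15 of the 65 pathway genes. The list was not uniform: Dusp5 was at -0.15 (-0.51 to 0.21), Spred2 at -0.08 (-0.27 to 0.11) and Phlda1 at 0.01 (-0.13 to 0.16). Many receptors other than ErbB signal through ERK, and these genes are not specific to it.

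Among 30 adaptors and MAPK and PI3K signaling genes, 3 were at least 2-fold higher and 1 lower, beside 13.7% and 5.61% of all genes. The median was 0.25. The adaptor Gab2 (120 and 312 UMIs) stood at 1.53 (1.22 to 1.84), the kinase Src at 1.5 (1.18 to 1.82) and the adaptor Shc1 at 1.18 (1.05 to 1.32). The transcription factor Stat5a was the lowest, with 922 and 271 UMIs and a log2 ratio of -1.62 (-1.82 to -1.42). The adaptor Gab1 at -0.93, the kinase Akt2 at -0.92 and Stat5b at -0.90 lay just inside 2-fold. With TMM or DESeq2 factors these also passed, which made 4 lower against 3 higher. The list as a whole thus lay close to the median of all genes, with members far from it on either side.

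Of 7 genes for shedding and processing of ligands, 3 were at least 2-fold higher and 0 lower, beside 13.7% and 5.61% of all genes. Their median was 0.42. The metalloprotease gene Adam19 counted 524 and 1164 UMIs, with a log2 ratio of 1.30 (1.15 to 1.45). Rhbdf1, an inactive rhomboid that guides ADAM17 to the cell surface, stood at 1.20 (1.06 to 1.34), and Adam12 at 1.18 (0.46 to 1.93) on 25 and 51 UMIs. Adam17 itself, the main sheddase of HB-EGF-like ligands, was the lowest of the list at -0.05 (-0.27 to 0.17).

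The 6 other EGF-family ligands had 1 gene at least 2-fold higher and 1 lower, beside 13.7% and 5.61% of all genes. Egf had 174 control and 70 transgenic UMIs, for a log2 ratio of -1.16 (-1.58 to -0.76), and was the lowest of the list. Areg, the gene of amphiregulin, was the highest, at 1.25 (0.29 to 2.28) on 14 and 30 UMIs. Of 9 counted inhibitors and ubiquitin ligases of ErbB receptors, 1 was at least 2-fold higher and 0 lower, beside the same shares. The higher gene was Errfi1, an inhibitor of EGFR and ErbB2 kinase activity that is itself induced by EGF signaling. Its UMIs were 159 and 361, for a log2 ratio of 1.33 (1.06 to 1.61). The lowest was Lrig1, a negative regulator of ErbB receptors, at -0.80 (-1.19 to -0.41).

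**Figure D5:**
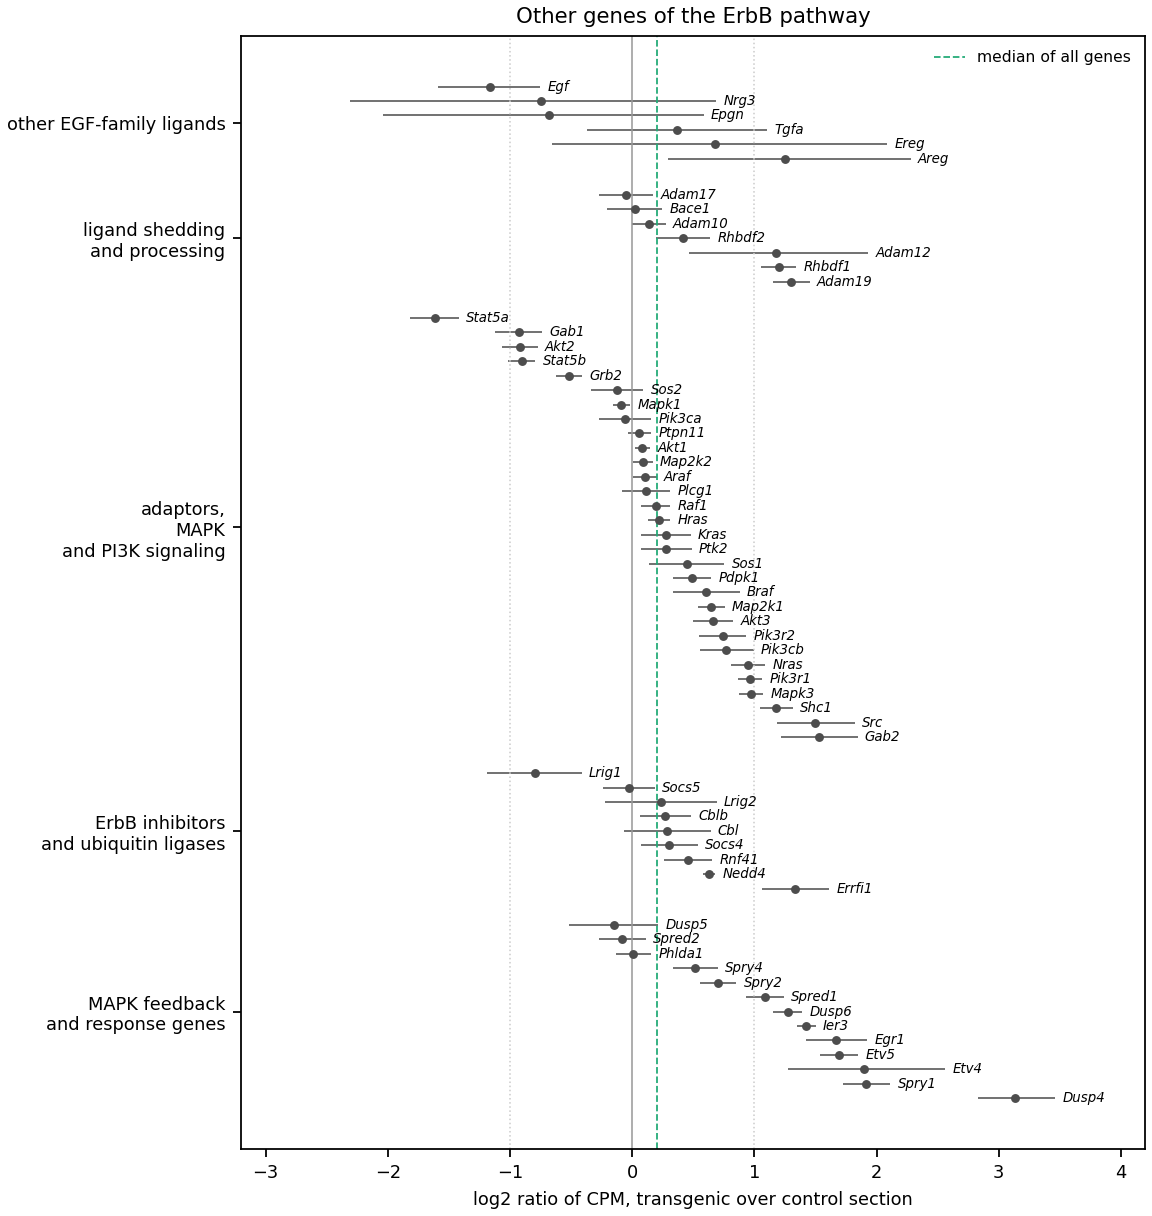
Log2 ratio of transgenic over control CPM for the 65 other pathway genes with at least 20 UMIs, grouped by list and ordered by ratio, with exact conditional binomial 95% intervals. Dotted lines mark 2-fold, the dashed line marks the median of all genes at 0.20, and 8 of the 13 MAPK feedback and response genes lie past 2-fold, with Dusp4 at 3.14.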

How the data were processed

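Values were deposited as raw UMI counts for every gene in each spot over tissue, made with Space Ranger 2.0.0 per the file headers. The submitters' processing notes name bcl2fastq and the genome builds GRCm39 and mm39, and the probe set is not given in the sources used here. The score used as given is Moran's I, which the authors deposited for each section, and their p values were not used. No coordinates are printed, because the gene tables at hand use another build.

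UMIs were summed over spots with numpy 2.4.6, scipy 1.17.1 and pandas 2.3.3. The interval of the ratio between sections was tested on simulated gene counts, and the summing over spots and the other intervals were not. In the ratios of all genes between the sections, a sum of 0 was given a floor of 3 counts. Where Erbb4 had no UMI in a group of spots, no floor was applied and no ratio is given. Grid distances were counted on the hexagonal array, of which 4 control and 2 transgenic spots had no neighbor and held no Nrg1. Thinned shares are exact hypergeometric expectations, at the 10th percentile of depth over both sections. Scaling alternatives used edgeR 4.0.16 and DESeq2 1.42.0 under R 4.3.3 for factors only. Other alternatives changed the spots, edge, threshold or filter. The members and lists were chosen with earlier results of these data known. Of each pathway list the text names genes past 2-fold with at least 50 UMIs, at most the 4 largest each way, and the highest and lowest gene. Genes just inside 2-fold, and those at least 2-fold beyond the fourth, were named after their values were seen.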

Additional observations from a re-analysis of the deposited data

How the results depend on the processing

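With 1 section per genotype, no setting adds a replicate. TMM and DESeq2 factors shift every log2 ratio by -0.16 and -0.15. The DESeq2 factors were used as 1.00 in both sections, so that setting is the ratio of UMIs without scaling by depth. Of 99 alternative ratios of the 9 genes, none turned direction and 98 moved by less than their counting interval. Nrg1 ranged from 2.41 to 2.67 and Erbb2 from 1.04 to 1.52, the highest in the cardiomyocyte-rich spots. The count at least 2-fold higher was 3 in the cardiomyocyte-rich spots (with Btc at 1.29) and 5 when 1.5-fold was used. The share of all genes was not counted at these alternative settings. The count at least 2-fold lower was 1 with TMM factors, DESeq2 factors, cardiomyocyte-rich spots, the mean over spots or 1.5-fold (Nrg4), and 1 in erythroid-poor spots (Erbb4 at -1.07). With fewer than 5 neighbors as the edge, the transgenic inner edge ratio of Nrg1 was 1.53 and the control ratio of Egfr turned from -1.41 to 0.026. The transgenic ratio of Nrg4, on 7 inner edge UMIs, went from 0.78 to -1.42. In all, 10 of 52 inner edge values changed sign, and that of Egfr was the 1 whose ratio was past 2-fold or had an interval leaving out 0. Among marker-rich spots, 84 of 334 alternative values changed sign, of which 3 were of a ratio past 2-fold or with an interval leaving out 0: Nrg2 in endocardial marker-rich control spots at 5% of spots (-0.062), Nrg4 in smooth muscle marker-rich transgenic spots at 20% (0.095), and Nrg1 in erythroid marker-rich transgenic spots at 5% (-0.22). Pathway genes at least 2-fold lower were 5 with TMM or DESeq2 factors and 4 without the 50 most abundant genes. The causes of these shifts were not tested. The settings without endocardial marker-rich spots and with openings of at least 20 positions (Nrg1 inner edge 2.79 in the control and 2.08 in the transgenic section) were chosen after seeing the data. Depth limits Nrg2, Nrg4, Btc and Erbb4 most, at 17 to 60 UMIs per section.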
